A study of Rattus norvegicus with 2 samples.

Results

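Laminins are the proteins that the sheets of extracellular matrix called basement membranes are built on. The genes described here are the 9 laminin chain genes Lama1, Lama2, Lama3, Lama4, Lama5, Lamb1, Lamb2, Lamb3 and Lamc1, taken by symbol from a table of 22312 genes in rat skin. All 9 were found, each in 1 row of the table. Skin came from male Sprague-Dawley rats of 4 weeks, and 1 library was made from an area that had received a single 45 Gy dose of electrons (6 MeV, 750 cGy/min) and 1 from an area that was not irradiated. The series concerns radiation-induced skin fibrosis. The interval between dose and sampling, the number of animals and any pooling of RNA are not stated in the labels. With 1 library per group no difference below has a replicate check, no test of irradiation was possible, and every statement describes these 2 libraries. Groups follow the source labels; the irradiated library is titled NC, which is not expanded, and every direction would turn round if the libraries had been exchanged.

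A laminin is a trimer of 1 alpha, 1 beta and 1 gamma chain, and its number names the chains it holds. Laminin-332, made by basal keratinocytes, lies under the epidermis and holds it to the dermis through hemidesmosomes and anchoring fibrils. Laminins with the alpha 2 chain coat muscle fibres and Schwann cells and bind dystroglycan and integrins, while those with the alpha 4 chain are known from the basement membranes of vessels and also from muscle, nerve and fat. The alpha 5 chain occurs in both epidermal and vascular basement membranes, and the alpha 1 chain is mainly a chain of the embryo. The beta 1, beta 2 and gamma 1 chains are partners of several alpha chains and do not belong to 1 tissue.

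RefSeq promoter windows of assembly GRCr8, which run from 250 bases before to 50 bases after a transcription start, were matched for 8 of the 9 members, and Lamb2 was the member without one. Those of Lama3 and Lamb3, the 2 members that belong to laminin-332, are shown with that of Lama4, an alpha chain of vessels, because the levels of the first pair and of Lama4 differed in opposite directions between the libraries. Sequences run 5′ to 3′ on the gene's strand, and capitals mark each match to TGANTCA, the motif of the AP-1 transcription factors, whose reverse complement is the same motif. The windows are chr18:3952517-3952816 (plus strand) for Lama3, chr13:107362303-107362602 (plus strand) for Lamb3 and chr20:43946648-43946947 (plus strand) for Lama4.
Lama3: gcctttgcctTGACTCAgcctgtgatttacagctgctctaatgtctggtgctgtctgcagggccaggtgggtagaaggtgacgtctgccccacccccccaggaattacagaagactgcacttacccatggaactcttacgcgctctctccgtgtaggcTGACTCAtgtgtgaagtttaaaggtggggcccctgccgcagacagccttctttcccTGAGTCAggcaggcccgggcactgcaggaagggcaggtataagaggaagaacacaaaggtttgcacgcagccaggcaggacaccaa
Lamb3: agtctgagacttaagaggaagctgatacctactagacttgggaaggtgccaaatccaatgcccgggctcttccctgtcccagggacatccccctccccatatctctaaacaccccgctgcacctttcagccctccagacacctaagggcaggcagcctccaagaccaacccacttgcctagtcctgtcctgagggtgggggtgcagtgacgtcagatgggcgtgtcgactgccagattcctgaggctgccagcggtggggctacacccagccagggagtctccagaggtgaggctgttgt
Lama4: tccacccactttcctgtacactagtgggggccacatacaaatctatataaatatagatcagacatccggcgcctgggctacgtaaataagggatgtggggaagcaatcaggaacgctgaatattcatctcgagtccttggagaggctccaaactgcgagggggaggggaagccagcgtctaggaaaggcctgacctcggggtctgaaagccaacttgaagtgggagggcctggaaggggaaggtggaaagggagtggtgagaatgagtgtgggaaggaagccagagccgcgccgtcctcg

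The Lama3 window held 3 AP-1 matches, which began 240, 92 and 36 bases before the start. At least 1 match was present in 7.33% of all 33469 windows of this length, and at least 3 matches in 5 windows, or 0.0149%. None of the other 7 members with a window held a match. The GC box GGGCGG, searched on both strands, was found 5 times in the Lamc1 window, 4 times in that of Lama5, 2 times in that of Lamb1 and 1 time in that of Lama2, and not in those of Lama1, Lama3, Lama4 and Lamb3; 33.1% of all windows held it. The E-box CANNTG, which reads the same on both strands, occurred 3 times in the Lama3 window, 2 times in those of Lama2 and Lamb3, 1 time in those of Lama1, Lama5 and Lamb1, and not in those of Lama4 and Lamc1; 72.1% of all windows held at least 1 and 16.6% at least 3. A TATA box, TATAAA on either strand, was found 1 time in the Lama4 window, 205 bases before the start, and in no other laminin window, against 14.2% of all windows. The E-box of Lama3 at 87 bases before the start overlapped the middle AP-1 match. The start used for the Lama3 window lies 154869 bases inside the RefSeq gene, which spans 235124 bases; in human and mouse a short and a long form of the alpha 3 chain start at separate promoters. The matches are descriptions of these letters, and no binding was measured.

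**Figure D1:**
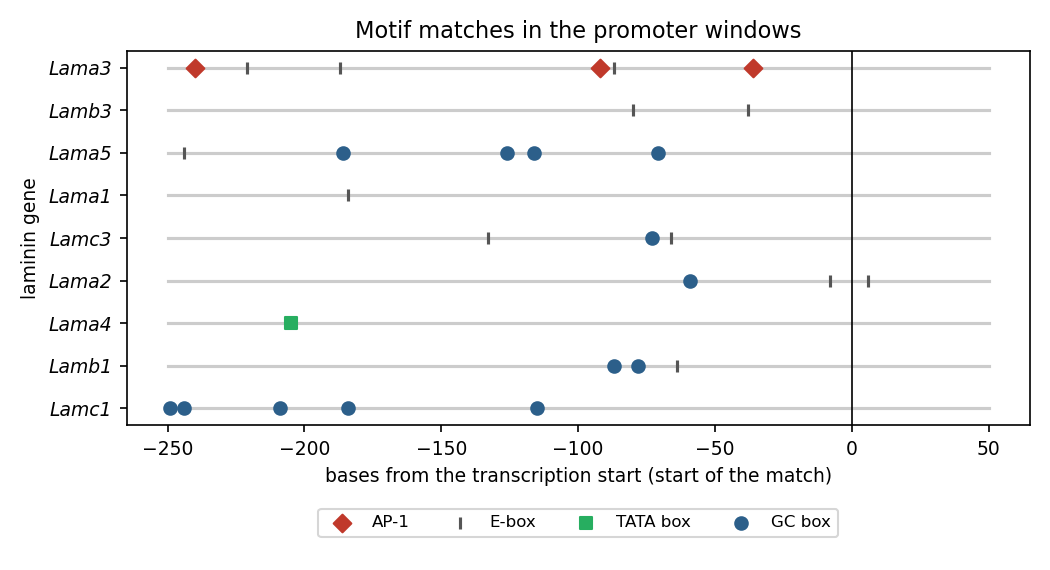
Motif matches in the promoter windows of 8 laminin members and of Lamc3; the x axis gives the distance in bases of the first base of a match from the transcription start, and each row is a gene. Diamonds mark AP-1, ticks E-boxes, the square a TATA box and circles GC boxes; the 3 AP-1 matches all lie in the Lama3 window.

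The 2 laminin-332 chains among the members, Lama3 and Lamb3, stood far higher in irradiated skin, Lama5 of epidermis and vessels stood higher too, and Lama2, Lama4, Lamb1, Lamb2 and Lamc1 lay within 2-fold. Lamb3, the beta 3 chain gene found in laminin-332, was at 5.84 FPKM in irradiated and 0.278 FPKM in non-irradiated skin. FPKM sets the fragments of a gene against the length of its transcript and the size of the library, so that levels can be compared between genes. Lamb3 rested on an estimated 283 against 15 reads, and its scaled count was 20.9-fold higher in the irradiated library with a 95% exact Clopper-Pearson interval of 12.5 to 37.9. This and the following intervals cover counting error only and not differences between animals. Lama3, the alpha chain gene of laminin-332, was at 1.45 against 0.144 FPKM on 91 against 10 reads, and its scaled count was 10.1-fold higher (5.24 to 21.7). Both genes were thus low in the non-irradiated library and higher in the irradiated one.

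The deposited table places Lamb3 (ENSRNOG00000006025) on chromosome 13 from 116587120 to 116628793 on the plus strand, and Lama3 (ENSRNOG00000011300) on chromosome 18 from 3867376 to 3939230 on the plus strand, in a genome build that is not given in the sources used here. The Lama3 model of the table spans 71855 bases. The number of scaled counts per FPKM, which follows the transcript length used, was 66.1 for Lama3 against 98.1 for Lama2 and 146 for Lama5. The long form of the alpha 3 chain, known in human and mouse, is longer than the alpha 2 chain, whereas the length used for Lama3 here was the shorter of the pair; the table gives no values for separate forms.

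Lama5, whose alpha 5 chain joins beta 1 or beta 2 and gamma 1 in laminins of epidermis and vessels, was at 2.33 FPKM in irradiated and 0.552 FPKM in non-irradiated skin. It rested on 323 against 85 reads, and its scaled count was 4.21-fold higher (3.31 to 5.42). Its ratio, written as log2((irradiated FPKM + 1)/(non-irradiated FPKM + 1)), was 1.10, which passed the 2-fold line of 1 on this scale. With the median ratio of all genes set to 0 it was 0.89 and no longer passed. Lama1, of embryonic basement membranes, was at 0.0772 FPKM on 10 reads in irradiated skin and was without reads in the other library. With the floor of 3 reads put there its scaled count was 3.70-fold higher, a value that leaves out counting error and is no lower limit. Lamc3, the gamma 3 chain gene and no member, likewise had 13 reads (0.226 FPKM) against none, 4.8-fold higher with the same floor. Both lay near the limit of these libraries, where 3 reads correspond to 0.0209 FPKM for Lama1 and 0.0470 FPKM for Lamc3.

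Lama2, the muscle and Schwann cell alpha chain, was lower in the irradiated library, at 0.505 against 0.978 FPKM on 47 against 101 reads. The ratio of its scaled counts was 0.516 with an interval of 0.357 to 0.736. Lama4, the alpha chain known from vessels, was at 2.85 against 4.62 FPKM on 204 against 367 reads, a ratio of 0.616 (0.517 to 0.733). Both alpha chains were thus lower, by less than 2-fold in the estimates, and both intervals lay below 1. In bulk tissue fewer cells of a type and less RNA per cell cannot be told apart.

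The shared beta and gamma chains differed least. Lamb2, the beta chain of the neuromuscular junction and of muscle and vessel laminins, was the most abundant laminin in both libraries at 18.2 FPKM in irradiated and 21.0 FPKM in non-irradiated skin (1226 against 1573 reads, ratio 0.864, interval 0.801 to 0.932). Lamc1, the gamma chain of most laminins outside laminin-332, was at 6.83 against 7.93 FPKM on 635 against 819 reads, a ratio of 0.860 (0.774 to 0.955). Lamb1, the beta chain of many laminins, was at 4.14 against 3.24 FPKM on 275 against 239 reads, a ratio of 1.28 (1.07 to 1.52). Of these 3 genes Lamb1 was the higher one in irradiated skin and the other 2 were slightly lower.

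**Figure D2:**
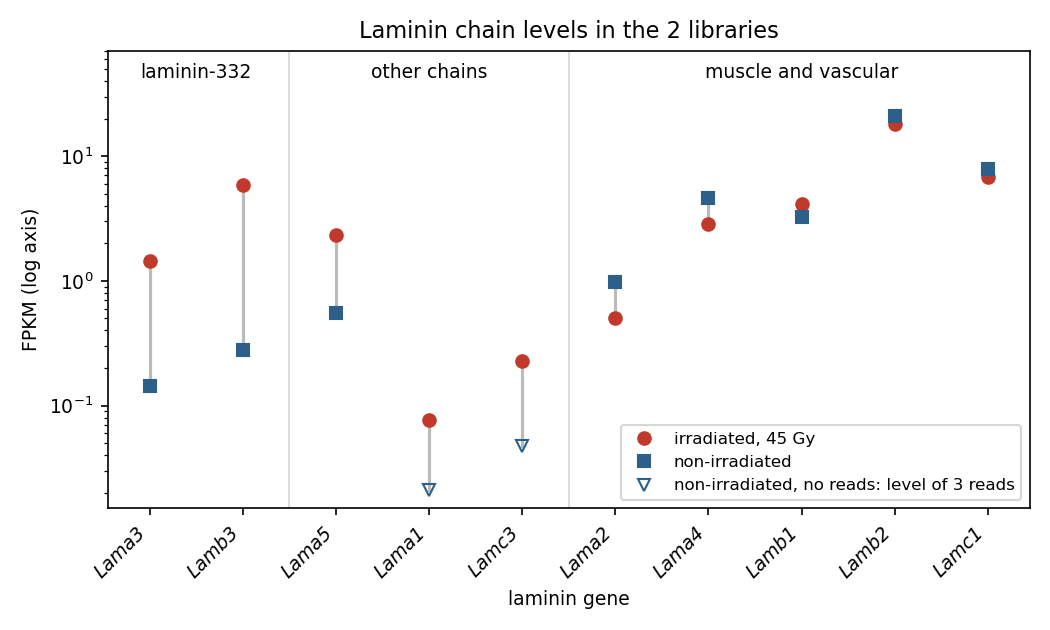
FPKM of the 9 laminin members and of Lamc3 on a log axis, with 1 point per library; open triangles stand for the level that 3 reads would give where a library had none. Circles are irradiated and squares non-irradiated skin: Lamb3 stood at 5.84 against 0.278 FPKM, while Lamb2 stood at 18.2 against 21.0 FPKM.

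By the rule of at least 2-fold on the log2 scale above and a mean of at least 1 FPKM, 9.70% of the 9743 genes measured were higher and 1.53% were lower in irradiated skin. Of the 9 laminin members 6 reached that mean, namely Lama4, Lama5, Lamb1, Lamb2, Lamb3 and Lamc1. Of these, Lamb3 (log2 2.42) and Lama5 (1.10) passed the line on the higher side, 0 passed it on the lower side and the other 4 lay between. Lama3, Lama2 and Lama1 had means below 1 FPKM; Lama3 had a log2 ratio of 1.10, which was 0.89 with the median ratio of all genes set to 0 and 0.95 with trimmed-mean scaling, both below the line; Lama2 had -0.39 and Lama1 0.11. Without the minimum, 5.16% of all 22312 genes passed on the higher and 0.775% on the lower side, as did 3 and 0 of the 9 members. With 1 FPKM added, a gene below 1 FPKM in the non-irradiated library cannot reach the lower line. That holds for Lama1, Lama2, Lama3, Lama5 and Lamb3, so the 0 rests on Lama4, Lamb1, Lamb2 and Lamc1. A gene that reached the mean only through its high library had to differ, so the members that reached it are not a sample of all 9. Both members called higher were such genes, since Lamb3 and Lama5 were at 0.278 and 0.552 FPKM in non-irradiated skin. Having reached the mean, they had to be higher in irradiated skin, so their count adds nothing to their single ratios. The added 1 FPKM shrinks the ratios of low genes, and for Lama3 and Lamb3 the ratios of scaled counts above are several times larger.

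The median log2 ratio of the 2 members of laminin-332 was 1.76. For the 5 muscle and vascular members Lama2, Lama4, Lamb1, Lamb2 and Lamc1 it was -0.20, with a range of -0.55 to 0.28. Of these, Lamb1, Lamb2 and Lamc1 encode shared chains that also occur in laminins of epidermis, and the 2 alpha chains Lama2 and Lama4 had -0.39 and -0.55. The medians differed by 1.96. The median of all measured genes was 0.21, so the laminin-332 median lay 1.55 above it and that of the muscle and vascular chains 0.41 below it, a value of -0.41. Lamb1 (0.28) lay close to the median of all genes.

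**Figure D3:**
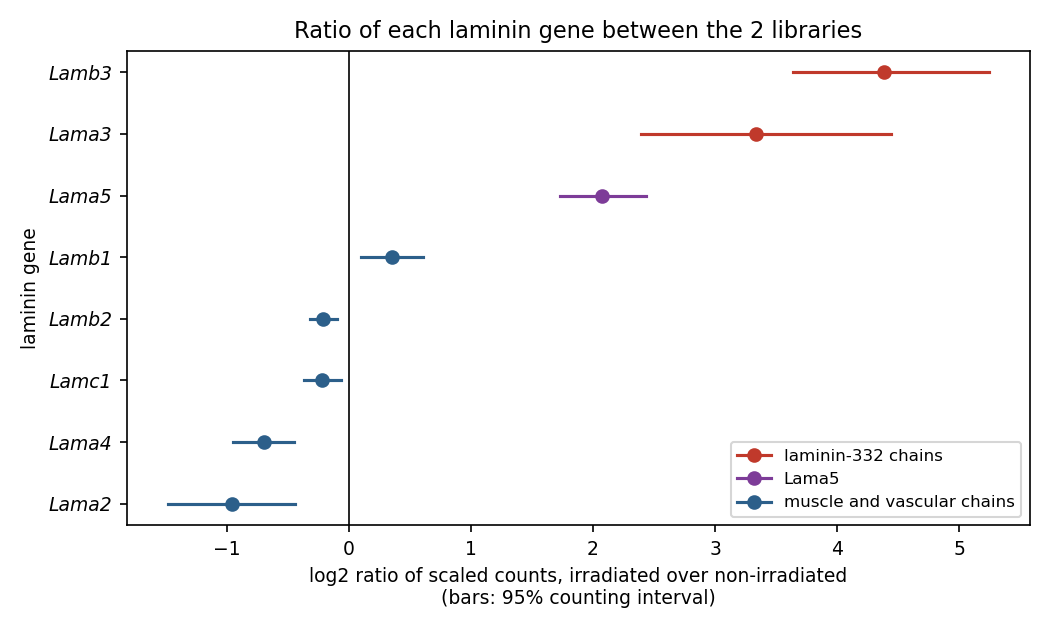
Log2 ratio of scaled counts, irradiated over non-irradiated, for the laminin members with reads in both libraries; bars are 95% exact counting intervals of 2 libraries. Lama3 and Lamb3 lie on the right with Lamb3 at 4.39 (3.64 to 5.24), Lama5 lies at 2.08, and Lama2 lies lowest at -0.95 (-1.49 to -0.44).

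Ratios between chains within a library do not depend on how the libraries were scaled to each other, and 9 such pairs of chains were set side by side here; 52 pairs of a chain and a cell type marker and 3 of a chain and another gene follow further on. Lama3 was 2.87 times as high as Lama2 in the irradiated library (2.0 to 4.18) and 0.147 times as high in the non-irradiated one (0.0684 to 0.281), so their order was turned round. The ratio of these ratios was 19.3 with an exact conditional interval of 9.0 to 45.4; here and below it is the conditional maximum-likelihood estimate from the reads, which differs slightly from the quotient of the printed ratios. Lama3 against Lama4 gave 0.509 and 0.0311, a ratio of ratios of 16.3 (8.24 to 35.9), and Lama4 remained the higher of the pair in both libraries. Lama5 was 4.61 times as high as Lama2 in the irradiated and 0.564 times as high in the non-irradiated library (ratio of ratios 8.13, 5.25 to 12.7). Against Lama4 it stood at 0.816 and 0.119 (6.82, 5.05 to 9.29). Lama2 and Lama4 kept nearly the same proportion, 0.177 and 0.212, and the interval of their ratio of ratios (0.837, 0.556 to 1.25) included 1.

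Among the beta chains the order was also turned round: Lamb3 was 1.41 times as high as Lamb1 in the irradiated library (1.19 to 1.67) and 0.0859 times as high in the non-irradiated one (0.0473 to 0.145). Against Lamb2, Lamb3 gave 0.321 and 0.0132, a ratio of ratios of 24.2 (14.3 to 44.0). The 2 beta chains outside laminin-332 shifted less: Lamb1 against Lamb2 gave 0.228 and 0.154, a ratio of ratios of 1.48 (1.22 to 1.79). Between the 2 laminin-332 members, Lama3 stood at 0.249 of Lamb3 in the irradiated library and 0.516 in the other, and the interval of the ratio of ratios (0.483, 0.195 to 1.25) included 1.

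Expressed as a part of the summed FPKM of its class, Lama4 made up 73.4% of the 5 alpha chains in non-irradiated and 39.5% in irradiated skin. Lama2 went from 15.5% to 7.0%. Lama5 made up 8.76% and 32.3%, and Lama3 2.28% and 20.1%. The summed FPKM of the alpha chains itself was similar, 6.30 in the non-irradiated and 7.22 in the irradiated library. The mix of alpha chains thus differed more than their sum. Lamb3 made up 1.13% of the beta chains in non-irradiated and 20.7% in irradiated skin, next to 85.7% and 64.6% for Lamb2 and 13.2% and 14.7% for Lamb1. The beta chains summed to 24.5 and 28.2 FPKM.

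**Figure D4:**
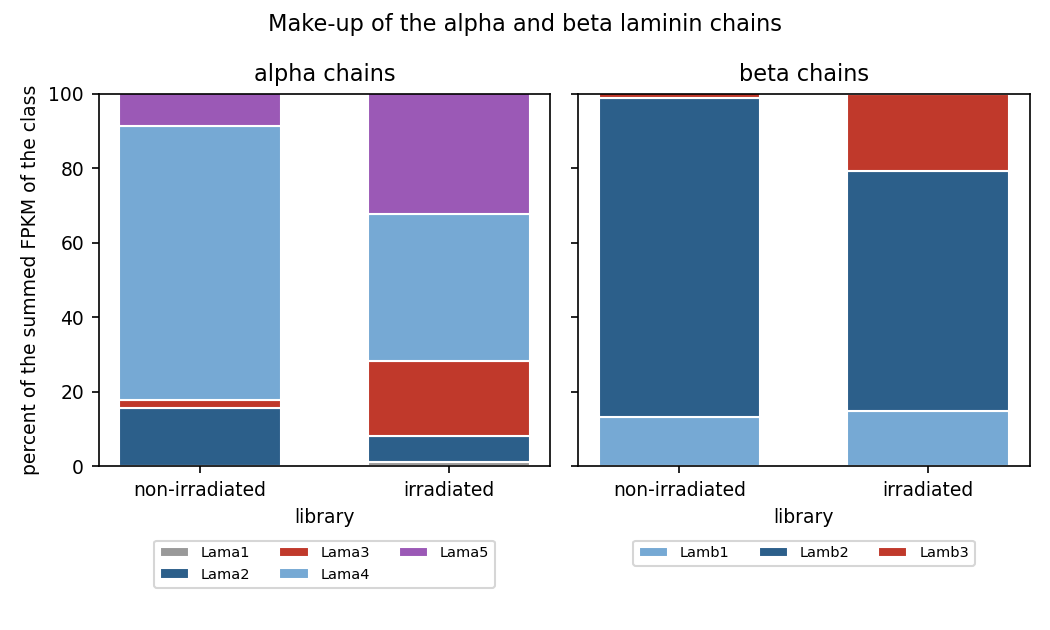
Share of each chain in the summed FPKM of the alpha and the beta laminin chains, in percent, with 1 bar per library. The red parts are the laminin-332 chains Lama3 and Lamb3, at 2.28% and 1.13% in non-irradiated and 20.1% and 20.7% in irradiated skin.

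In order of FPKM the irradiated library held Lamb2, Lamc1, Lamb3, Lamb1, Lama4, Lama5, Lama3, Lama2, Lamc3 and Lama1. For all neighbours in this order the counting interval, which takes reads as independent, left out 1. It did so only narrowly for Lamc1 and Lamb3 (ratio 1.17, 1.02 to 1.35) and for Lama4 and Lama5 (1.23, 1.02 to 1.47). The non-irradiated library held Lamb2, Lamc1, Lama4, Lamb1, Lama2, Lama5, Lamb3 and Lama3, followed by Lamc3 and Lama1 without reads. Here the interval for Lamb3 and Lama3 (1.94, 0.814 to 4.82) included 1, and those of the other neighbours with reads did not. Lamb3 was in place 3 in irradiated and place 7 in non-irradiated skin, and Lama2 in places 8 and 5.

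Markers of the cell types that make laminins differed between the libraries as well. Counts of listed genes here and below are on the log2 scale with 1 FPKM added. On that scale 9.7% of the 9743 measured genes were higher, 1.53% were lower and 8649 genes lay within 2-fold. With the median ratio of all genes set to 0, Tp63, Krt71, Hoxc13, Padi3, Col7a1, Abcc9 and Mb would no longer pass as higher. Ckm would then pass as lower. In FPKM with nothing added, more of the listed genes that reached the mean of 1 FPKM would pass 2-fold. The added higher ones are Col4a2, Col18a1, Dst, Dmd, Cspg4, Notch3, Prx and Thy1, and the added lower one is Lipe. Genes below that mean are not named there, and some of them also pass, such as Fermt1 and Itga6 as higher and Kdr as lower. Of 10 basal keratinocyte markers 9 had a mean of at least 1 FPKM, and 8 of these were at least 2-fold higher in irradiated skin and 1 lay within 2-fold. Over all 10 the summed level was 1201 FPKM in irradiated and 70.5 FPKM in non-irradiated skin, 17.0-fold higher, and Dsg3, a desmosomal cadherin of keratinocytes, was without reads in the latter. Krt14 and Krt5, the keratin pair of basal cells, stood at 618 against 12.0 FPKM and at 369 against 26.4 FPKM. The summed level of Lama3 and Lamb3 was 7.29 against 0.422 FPKM, 17.3-fold higher. The basal sum is mostly Krt14 and Krt5, so its likeness to this value depends on those genes. Single basal markers with reads in both libraries ran from 2.05-fold (Dst) to 51.6-fold (Krt14) higher in FPKM. The part of basal keratinocytes in the laminin difference was not tested. Set against each of the 9 basal markers with reads in both libraries, the chains gave values that depend on the marker. For Lama3 the ratio of ratios ran from 0.197 (0.10 to 0.431) against Krt14 to 5.47 (2.82 to 11.9) against Dst, and its interval included 1 for 6 markers, among them Krt5 (0.728, 0.374 to 1.58) and Krt15 (1.43, 0.735 to 3.11). For Lamb3 it ran from 0.408 (0.238 to 0.752) against Krt14 to 11.3 (6.69 to 20.7) against Dst; the interval lay below 1 for 1 marker, above 1 for 5 and included 1 for 3, among them Krt5 (1.51, 0.887 to 2.76). For Lama5 the interval lay below 1 for 7 markers, Krt5 (0.304, 0.233 to 0.400), Krt14 and Krt15 among them, included 1 for Tp63 and lay above 1 for Dst (2.28, 1.76 to 2.98). Tp63 was 2.66-fold higher in FPKM but 5.30-fold in scaled counts, so the values against it, which come from reads, depend on the measure. Of the 9 matched hair follicle markers, 8 reached the mean, and all 8 were at least 2-fold higher. Krt27, Lhx2, Hoxc13 and Padi3 reached it only through the irradiated library, as did Col17a1 and Cdh3 of the basal list. These genes therefore had to be higher there, and their part in the counts is no independent result. The 9 hair follicle genes summed to 169 against 48.5 FPKM, and Krt86 was without reads in non-irradiated skin. Krt25 and Krt71, keratins of the inner root sheath, stood at 65.6 against 18.3 FPKM and at 39.9 against 17.3 FPKM.

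The markers of skeletal muscle and endothelium lay closer together in sum. The 13 skeletal muscle markers had a median log2 ratio of -0.19, with 3 at least 2-fold higher (Myh1, Myh2 and Mb), 0 lower and 10 within 2-fold, and summed to 261745 against 281713 FPKM. Mylpf and Tnnc2, of fast muscle, stood at 92922 against 81247 FPKM and at 74216 against 84551 FPKM, so both libraries of labelled skin held muscle. Against the 13 muscle markers, Lama2 gave ratios of ratios from 0.199 (0.138 to 0.284) for Myh2 to 0.933 (0.645 to 1.33) for Ckm. The interval lay below 1 for 8 markers and included 1 for 5, namely Ckm, Myh4, Actn3, Des and Atp2a1, so the value depends on the marker. Relative to Dmd, the dystrophin gene, Lama2 gave 0.247 (0.145 to 0.417). Of 12 endothelial markers 10 reached the mean, of which 0 were higher by 2-fold, Emcn and Plvap were lower and the other 8 were within that range. Their median was -0.28, and all 12 had a sum of 40.7 against 53.9 FPKM. Relative to Pecam1, an adhesion molecule of endothelium at 8.62 against 13.3 FPKM, Lama4 had nearly the same level in both libraries (0.959, 0.739 to 1.24). Relative to Cdh5, a cadherin of endothelium with 20 against 8 reads, it gave 0.223 (0.0834 to 0.540). Over all 12 endothelial markers the interval for Lama4 included 1 for 6, lay below 1 for 4 and above 1 for 2, so here too the value depends on the marker. Egfl7, secreted by endothelium, stood at 8.0 against 6.46 FPKM. The part of these cells in the values of Lama2 and Lama4 was not tested.

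Other cell types that make laminins went in different directions. Of the 10 matched pericyte and smooth muscle markers, 4 were at least 2-fold higher and 6 within 2-fold with 1 FPKM added (sum 86.1 against 29.5 FPKM). Of the latter, Notch3 had a 3.78-fold (2.66 to 5.46), Cspg4 a 2.68-fold (2.03 to 3.57) and Mcam a 1.40-fold (1.14 to 1.72) higher scaled count. The intervals of Pdgfrb (1.16, 0.909 to 1.48), Rgs5 (1.33, 0.527 to 3.44) and Kcnj8 (1.37, 0.915 to 2.07) included 1. The most abundant markers were Tagln at 51.3 against 15.3 FPKM and Myh11 at 9.72 against 2.29 FPKM. Of 6 Schwann cell markers 5 reached the mean, of which 2 were at least 2-fold higher and 3 within 2-fold. All 6 summed to 71.9 against 44.3 FPKM. The myelin genes Pmp22 and Mbp stood at 38.5 against 33.3 FPKM and at 21.6 against 2.27 FPKM. Of the 6, S100b alone was lower, at 4.06 against 6.51 FPKM on 66 against 118 reads, and lay within 2-fold. Of 10 fibroblast markers Pi16 alone was lower by 2-fold or more and the other 9 were within 2-fold (sum 832 against 1222 FPKM), with Col3a1 at 284 against 414 FPKM and Dcn at 230 against 394 FPKM. Of 7 adipocyte markers 4 reached the mean, namely Fabp4 as a lower one (166 against 383 FPKM) and 3 within 2-fold, with Pparg at 3.34 against 1.68 FPKM; the 7 summed to 172 against 388 FPKM, and without Fabp4 the other 6 to 6.09 against 4.99 FPKM. Lama2 and Lama4 were lower in irradiated skin. The summed level of the Schwann cell markers was higher, mostly through Mbp. That of the mixed pericyte and smooth muscle list was higher too, with Tagln as its most abundant gene. The sums of endothelial and fibroblast markers were lower, and the adipocyte sum was lower through Fabp4. The part of these cells in the laminin values was not tested.

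**Figure D5:**
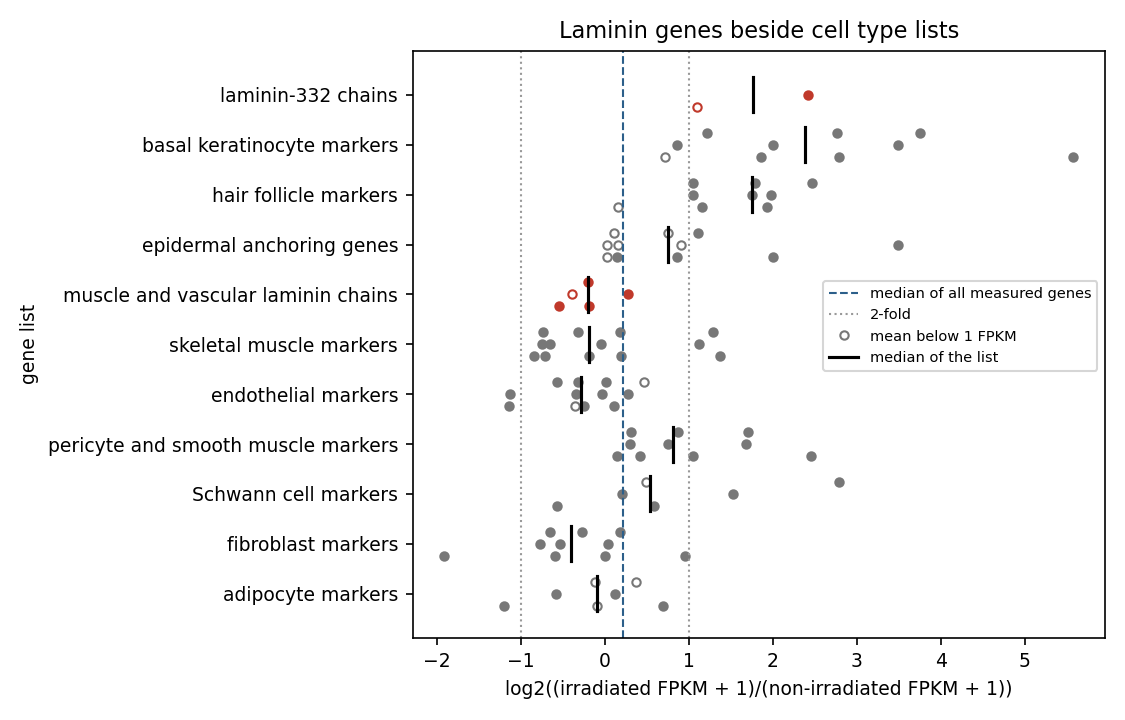
Log2 ratios of single genes, log2((irradiated FPKM + 1)/(non-irradiated FPKM + 1)), for 2 groups of laminin members (red) and for lists of marker and anchoring genes (grey); black bars are list medians over all listed genes in the table, open points have a mean below 1 FPKM, the dashed line is the median of all measured genes (0.21) and dotted lines mark 2-fold. The laminin-332 members lie at 1.10 and 2.42, and Lama2, Lama4, Lamb1, Lamb2 and Lamc1 between -0.55 and 0.28.

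The proteins that fasten laminin-332 to the epidermis and the dermis were described by a list of 11 anchoring genes. Of these 5 reached a mean of 1 FPKM, of which 3 were at least 2-fold higher and 2 within 2-fold. Col17a1, the transmembrane collagen of hemidesmosomes, stood at 17.0 against 0.605 FPKM (log2 3.49). Itgb4, the integrin beta chain that binds laminin-332 in hemidesmosomes, stood at 7.84 against 1.20 FPKM (log2 2.01). Col7a1, the collagen of anchoring fibrils, had a log2 ratio of 1.11, on 551 against 216 reads. Plec, a linker of hemidesmosomes to keratin that muscle also makes, was at 13.7 against 12.3 FPKM. Itga6, the partner of Itgb4, had a mean below 1 FPKM and was at 1.26 against 0.203 FPKM on 50 against 9 reads. Col17a1, Itgb4 and Dst also stand on the basal keratinocyte list.

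Of 11 laminin receptor genes 9 reached the mean, of which 2 were at least 2-fold higher, 0 lower and 7 within 2-fold, with a median of 0.37. The higher ones were Itgb4 and Sdc1, a heparan sulfate proteoglycan of epithelia that binds laminin, at 42.5 against 3.20 FPKM (log2 3.37). Itgb1, the integrin beta chain shared by most laminin-binding integrins, stood at 34.8 against 33.4 FPKM. Itga7, the laminin-binding integrin alpha chain of muscle, was at 17.2 against 14.0 FPKM, and Dag1, which encodes dystroglycan, at 1.38 against 0.836 FPKM on 43 against 29 reads. Rpsa, a ribosomal protein that has also been described as a laminin receptor, stood at 1453 against 1075 FPKM; it has near-identical copies in the genome, which makes its value uncertain. Itgb4 and Sdc1, of epithelia, were thus higher, and Itga7, of muscle, and Dag1, which is not particular to muscle, lay within 2-fold.

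The enzymes that build the laminin-binding sugar of dystroglycan all lay within 2-fold, 11 of 11 measured, with a median of -0.10; B4gat1 was not matched in the table. Of the measured ones, B3galnt2 had a log2 ratio of 0.41 and stood at 16.4 against 12.1 FPKM, and Pomgnt1 had 0.37 and stood at 16.1 against 12.2 FPKM. All 7 listed partners in the dystrophin complex, which ties dystroglycan to the cytoskeleton of the muscle fibre, also lay within 2-fold on the scale with 1 FPKM added, with a median of 0.08. Of all 9743 measured genes 8649 lay within 2-fold, so these counts do not set either list apart from most genes. Dmd was at 3.30 against 1.57 FPKM (log2 0.74); without the added 1 FPKM it passed 2-fold, at 2.10-fold in scaled counts (1.45 to 3.07). By contrast the sarcoglycans Sgca and Sgcb were at 88.8 against 94.8 FPKM and at 43.0 against 52.5 FPKM (log2 -0.28). Lama2, the ligand of this complex in muscle, was at 0.516 of its non-irradiated scaled count in the same libraries.

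Basement membranes also hold collagen IV, nidogens and proteoglycans. Of 16 listed genes of such components 9 reached the mean, of which 1 was at least 2-fold higher, 0 lower and 8 within 2-fold, with a median of 0.47. The higher one was Agrn, the heparan sulfate proteoglycan agrin that binds laminins, at 7.54 against 1.48 FPKM (log2 1.79, 667 against 145 reads). Smoc2, a calcium-binding matrix protein, had a log2 ratio of 0.93 and stood at 18.1 against 9.05 FPKM. Col4a1, a chain of the collagen IV network found in nearly all basement membranes, was at 9.36 against 8.92 FPKM. Relative to Hspg2, which encodes perlecan, Lamc1 gave a ratio of ratios of 0.570 (0.468 to 0.692), and relative to Nid1, the nidogen that binds the gamma 1 chain, 0.388 (0.219 to 0.669), so that Lamc1 was lower against both in the irradiated library. Nid1 rested on 44 against 22 reads and had a mean below 1 FPKM. The other listed nidogen, Nid2, stood at 2.30 against 3.46 FPKM, with a ratio of scaled counts of 0.663 (0.530 to 0.827). That ratio was below the 0.860 of Lamc1, so Lamc1 was not lower against every listed component.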

How the data were processed

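Total RNA of the skin samples was freed of ribosomal RNA, made into stranded libraries and sequenced for 150 cycles, per the labels' protocols. Tools named in the submitters' processing notes, with no roles, are HISAT2 2.0.4, cutadapt 1.9.3, Cuffdiff and Cufflinks. Genome build, annotation and use of strand in counting: not given in the sources used here, so that overlapping genes and near-identical copies are uncertain. The authors deposited FPKM values, per the file headers. Their count columns are a signal scaled per library and not raw counts, as the deposited values show: low values are multiples of 1.05 (irradiated) and 0.951 (non-irradiated). Of values above 0, 97.5% and 97.7% came out whole (tolerance 0.01 of a read, plus 1e-05 for each read), and so did all values of the laminin genes. Division by that step gave about 11197446 and 12649562 reads. The 22714 rows were summed by symbol. No p-value was computed.

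A gene counted as measured from a mean of 1 FPKM, with a pseudocount of 1 FPKM and a line at 2-fold. Intervals are 95% exact Clopper-Pearson intervals of read ratios, and exact conditional intervals for ratios of ratios. Both cover counting error only and take reads as independent. PCR copies are not independent molecules, so any among the reads make the intervals too narrow. The floor for no reads was 3 reads. The 2-fold rule was tried on simulated reads, and so were the intervals of read ratios at a true ratio of 1. The exact conditional intervals were not tried in this way. Genes given a change in the simulation had means of at least 2 FPKM, above those of Lama1, Lama2, Lama3 and Lama5. The members and lists were chosen with earlier results of these data known. Of 148 listed genes 145 matched, 143 by symbol and 2 through RefSeq gene IDs (GRCr8). From each pathway list the 2 largest absolute ratios and the 2 highest means were named, and from each marker list the 2 highest means; other genes in the text were chosen after their values were seen, and some genes that these lists held are not reported here. Alternatives were another pseudocount, no or a higher minimum, other scalings, scaled counts and leaving out the 100 highest genes. Python 3.11.15, pandas 2.3.3, scipy 1.17.1 and matplotlib 3.10.9 were used.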

Additional observations from a re-analysis of the deposited data

How the results depend on the processing

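Of the 9 members, 8 kept the sign of their log2 ratio under every alternative that gave a value. Lama1, with 10 against 0 reads, turned from 0.11 to -0.10 with the median of all genes set to 0. The count of members at least 2-fold higher was 2. It was 0 with a mean of at least 5 FPKM, which leaves out Lamb3 and Lama5 by construction, and 1 with the median set to 0 or with trimmed-mean scaling, where Lama5 came to 0.89 and 0.92; it was 3 with no minimum or without the 100 highest genes, which add Lama3. The count at least 2-fold lower was 0 under all of them. With 1 FPKM added to the deposited values, Lama1, Lama2, Lama3, Lama5 and Lamb3 could not have reached the lower line. With a pseudocount of 0.1 or scaled counts, the minimum mean of 1 FPKM still left out Lama1, Lama2 and Lama3. The 0 therefore says little about these genes. The laminin-332 median of 1.76 was 3.32 with a pseudocount of 0.1 and 3.75 on scaled counts. Its distance of 1.96 from the muscle and vascular median was 3.54, 3.97 and, without the 100 highest genes, 2.91. Under the 5 FPKM minimum no laminin-332 median could be given. Over all genes, those at least 2-fold higher numbered 945 and lower 149, and 1562 and 252 with a pseudocount of 0.1, 1588 and 264 in scaled counts, 1957 and 444 leaving out the 100 highest, 321 and 84 from a mean of 5 FPKM and 674 and 266 with the median set to 0; the higher share of these went from 86.4% to 71.7% under that scaling and 72.7% with trimmed-mean scaling. No replicate could be left out. No paired analysis was possible because each group has 1 library. At 10 and 15 reads in the non-irradiated library, the sizes of the Lama3 and Lamb3 differences are known only within wide counting intervals.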

Other observations

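Of 7 genes for proteases known to process laminins or laminin-332 4 reached a mean of 1 FPKM, and all 4 lay within 2-fold, with a median log2 ratio of 0.47. Bmp1, a metalloproteinase that processes laminin-332, stood at 8.49 FPKM in irradiated against 5.02 FPKM in non-irradiated skin (log2 0.66), and Mmp2, a gelatinase, at 7.18 against 5.29 FPKM. Hpn, the membrane serine protease hepsin, went the other way at 3.09 against 5.65 FPKM (log2 -0.70). Tll2, a relative of Bmp1, had no reads in either library, and Mmp9 had 3 reads in irradiated and 0 in non-irradiated skin.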
